A study of Mus musculus with 10 samples.

Results

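Genes whose lowest level in mouse embryonic stem cells was found after long culture in 2i, well under that of every other library, numbered 92 of the 24015 genes in the table. They were chosen by their measured levels, in CPM (counts of the gene per fixed number of gene counts in the library, the usual scaling for depth). A gene had to reach at least 5 CPM in each of the 8 libraries outside long 2i. Its lowest value there also had to be at least 2.5 times its higher value in the 2 libraries of long 2i. Of the 9493 genes with at least 5 CPM in those 8 libraries, 97 met the ratio, and 5 (Aldoc, Fzd7, Lefty1, Lefty2 and Pdk4) were set aside because families named by symbol were left out. Since these values chose the genes, levels in long 2i are given as a description, with no test.

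The cells were embryonic stem cells derived from the inner cell mass of mouse blastocysts and held a reporter for Wnt/β-catenin activity, in all 10 libraries. RNA was sequenced from 5 groups of 2 libraries: serum with leukaemia inhibitory factor (LIF) throughout (serum), 5 to 6 passages in 2i with LIF (first 2i), more than 13 passages in 2i with LIF (long 2i), more than 13 passages in 2i followed by 6 in serum with LIF (serum return), and 13 passages in 2i, 6 in serum and 4 to 5 again in 2i (second 2i). The labels do not name the reporter construct, the line or clone, the mouse strain, or whether the 2 libraries of a group came from separate cultures, and the p-values then reflect library-to-library spread alone, possibly technical. Nor do they state whether the serum return cells sequenced here gave rise to second 2i. The 2i medium held 2 kinase inhibitors, one of GSK3 at 3 µM and one of the ERK pathway, called PD in the labels, at 1 µM.

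As background, GSK3 marks β-catenin for destruction, so its inhibition raises β-catenin and relieves repression by Tcf3 at pluripotency genes. ERK signalling, driven in these cells by FGF4, prepares them for lineage entry, and its inhibition holds them in a naive state. Serum with LIF keeps a more mixed population, and cells moved between the media are known to change much of their expression within a few passages.

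Gene counts totalled 16809070 and 18780882 in long 2i and 18412529 to 27766338 in the other libraries, so 1 count was worth 0.0360 to 0.0595 CPM. Replicates differed by more than sampling noise in each group, with a chi-square per degree of freedom of 3.33 to 4.59 in 4 groups and 23.8 in serum return. The serum return libraries read 2506 and 15408 CPM of Rn45s, the ribosomal RNA precursor. That gene is part of the 23.8, and a value without it was not computed. The 8 markers of embryonic stem cells summed to 4772 and 4829 CPM in long 2i and to 6306 to 7158 CPM elsewhere. Their members differed: Sox2 read 384 and 407 CPM in long 2i against 806 and 805 CPM in serum, whereas Nanog read 913 and 874 CPM against 721 and 701 CPM. Nanog was nevertheless below first 2i (1123 and 1127 CPM) and second 2i (1291 and 1286 CPM). Esrrb overlapped between long 2i and serum, at 958 and 1011 CPM against 973 and 1035 CPM. Sox2, Pou5f1, Klf4, Dppa5a and Tdgf1 were lowest in long 2i. Zfp42 (660 and 645 CPM) was lower in first 2i (634 and 619 CPM). Markers of neuroectoderm summed to 327 and 328 CPM in long 2i against 74.2 to 124.8 CPM elsewhere, and none of their 7 genes was at 0. The neurofilament genes Nefl (138 and 141 CPM) and Nefm (132 and 124 CPM) made up most of the sum in long 2i. Sox1 (7.91 and 8.25 CPM) and Map2 (3.51 and 3.301 CPM) were lowest there. Tubb3 (31.4 and 36.5 CPM) was below serum (47.1 and 46.5 CPM) but above first 2i (6.77 and 6.23 CPM) and second 2i (10.5 and 10.5 CPM). Pax6 was highest in long 2i, at 2.38 and 2.77 CPM against at most 0.66 CPM elsewhere. Nes (12.5 and 12.1 CPM) lay within the range of the other libraries. Fibroblast markers summed to 3.21 and 3.46 CPM and primitive endoderm markers to 15.3 and 18.8 CPM in long 2i, against 2.01 to 33.2 and 4.45 to 48.2 CPM elsewhere. Trophectoderm markers read 18.8 and 19.6 CPM against 18.4 to 35.1 CPM, and endothelial and blood markers 64.4 and 70.4 CPM against 57.9 to 126.3 CPM. Streak and mesoderm markers read 8.79 and 9.40 CPM against 1.85 to 5.99 CPM, most of it from T (3.09 and 3.46 CPM in long 2i) and Kdr (5.59 and 4.58 CPM). The part of these markers in the results was not tested.

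The long 2i libraries also stood apart by chromosome. Over the 533 genes of chromosome 1 with at least 5 CPM in the other libraries, the median log2 ratio to the serum mean was -0.40 and -0.43 in long 2i and -0.0039 to 0.064 in the 8 other libraries. Chromosome 6 stood at 0.40 and 0.38 and chromosome 16 at 0.40 and 0.38 in long 2i, against -0.0068 to 0.102 and -0.011 to 0.048 in the others. Along chromosome 1, cut into 4 blocks of genes in order, the blocks had long 2i medians of -0.31 and -0.32, -0.40 and -0.44, -0.42 and -0.43, and -0.44 and -0.47. Serum return, labelled as following more than 13 passages in 2i, did not carry these differences (0.06 and 0.03 on chromosome 1). Of the 92 genes, 14 lie on chromosome 1, which is 2.63% of its 533 genes, against 78 of 8927 genes (0.874%) elsewhere. Each gene's long 2i value was then divided by its chromosome's median ratio of long 2i to the mean of the other groups (log2 -0.45 on chromosome 1). After this division 85 of the 92 still met the limits, 7 of them on chromosome 1. Those that did not were Capn2, Casp8, Gpc1, Igsf8, Nav1, Soat1 and Tns1, and the part of the chromosome in their values was not tested.

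**Figure D1:**
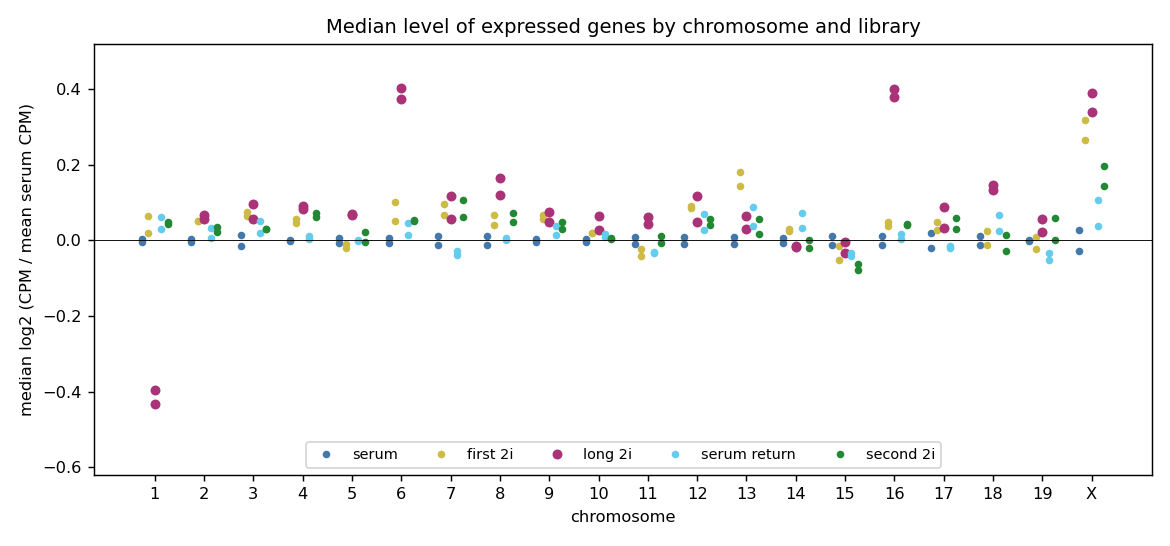
Median over the expressed genes of each chromosome (x axis) of the log2 ratio of CPM to the mean CPM of the 2 serum libraries (y axis), with 1 point per library and colours for the 5 groups. The long 2i points lie at -0.40 and -0.43 on chromosome 1 and at 0.38 to 0.40 on chromosomes 6 and 16, apart from the other libraries, whereas on X first 2i lies close to long 2i.

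For the genes with the largest gap between long 2i and every other library, the sequence before the start is shown so that the regions can be compared. Each is the 150 bases upstream of the first listed start in RefSeq (build GRCm38.p6, whereas the counts were made on mm9), 5′ to 3′ on the gene's strand, in lower case. The capitals mark matches on either strand to 7 motifs: the E-box CACGTG, the hypoxia core ACGTG that lies within it, the Tcf and Lef motif CTTTGAT, the TATA box as TATAAA, the CCAAT box, the Ets motif as GGAAGT and the GC box as GGGCGG. Of the 12 genes, 9 are in the promoter table:
Rcn3, chr7:45092214-45092363, - strand: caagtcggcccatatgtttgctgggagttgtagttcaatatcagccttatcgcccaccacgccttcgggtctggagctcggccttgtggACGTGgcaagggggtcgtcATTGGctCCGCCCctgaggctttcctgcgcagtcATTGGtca
Igsf21, chr4:140246812-140246961, - strand: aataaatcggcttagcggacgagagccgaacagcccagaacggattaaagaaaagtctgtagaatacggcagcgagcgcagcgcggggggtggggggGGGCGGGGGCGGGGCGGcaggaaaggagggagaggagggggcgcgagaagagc
Stat4, chr1:51986998-51987147, + strand: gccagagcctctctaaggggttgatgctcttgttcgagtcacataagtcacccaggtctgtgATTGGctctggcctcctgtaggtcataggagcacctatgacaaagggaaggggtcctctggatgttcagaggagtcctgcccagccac
B3galnt1, chr3:69598961-69599110, - strand: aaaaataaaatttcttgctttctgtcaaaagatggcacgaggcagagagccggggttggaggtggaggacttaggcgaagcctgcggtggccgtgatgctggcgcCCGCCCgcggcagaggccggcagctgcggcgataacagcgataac
Tgfbi, chr13:56609436-56609585, + strand: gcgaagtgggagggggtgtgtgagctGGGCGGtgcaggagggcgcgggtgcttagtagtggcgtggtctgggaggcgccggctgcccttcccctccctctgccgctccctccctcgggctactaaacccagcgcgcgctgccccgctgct
Aldh1b1, chr4:45798872-45799021, + strand: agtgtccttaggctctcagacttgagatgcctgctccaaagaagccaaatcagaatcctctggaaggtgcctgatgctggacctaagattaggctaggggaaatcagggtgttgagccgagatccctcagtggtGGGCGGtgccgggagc
Chst10, chr1:38898161-38898310, - strand: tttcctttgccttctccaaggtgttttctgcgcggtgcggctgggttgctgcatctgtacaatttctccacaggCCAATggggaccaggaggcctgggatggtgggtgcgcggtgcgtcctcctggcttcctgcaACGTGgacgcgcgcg
Pde4c, chr8:70723914-70724063, + strand: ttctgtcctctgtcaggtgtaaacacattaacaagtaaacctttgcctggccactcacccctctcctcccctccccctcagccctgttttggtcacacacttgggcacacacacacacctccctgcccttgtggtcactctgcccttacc
Creg2, chr1:39651183-39651332, - strand: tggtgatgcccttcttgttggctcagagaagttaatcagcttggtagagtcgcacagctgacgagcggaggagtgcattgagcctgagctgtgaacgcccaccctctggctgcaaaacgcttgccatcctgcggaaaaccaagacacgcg

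GGGCGG was found in the windows of Rcn3, Igsf21, B3galnt1, Tgfbi and Aldh1b1, and 29.0% of the 27025 promoter windows of that length in the table hold it. CCAAT was found in those of Rcn3, Stat4 and Chst10 (25.3% of all windows), and ACGTG in those of Rcn3 and Chst10 (11.2%). Pde4c and Creg2 held none of the 7 motifs. CACGTG (4.30% of all windows), CTTTGAT (1.81%), TATAAA (8.08%) and GGAAGT (13.9%) were not in any of the 9 windows. No motif was shared by all 9, and a match is a run of letters, not a measured site. Over the whole list a check of promoter GC content is void, because 69 of the 92 genes (75%) are in the table.

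The ratio of the lowest of the 8 other libraries to the higher long 2i library had a median of 3.29 and reached 14.5. Genes just inside the limit were Casp8 (2.5002), Soat1 (2.52) and Ldoc1l (2.55), and those just outside included Scn8a (2.49) and Uchl1 (2.44). With another group put in the place of long 2i, the same rule found 4 genes for serum, 6 for first 2i, 1 for serum return and 0 for second 2i. The median log2 fold change of the 92 genes in long 2i was -2.78 against serum, -2.19 against first 2i, -2.89 against serum return and -2.32 against second 2i.

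**Figure D2:**
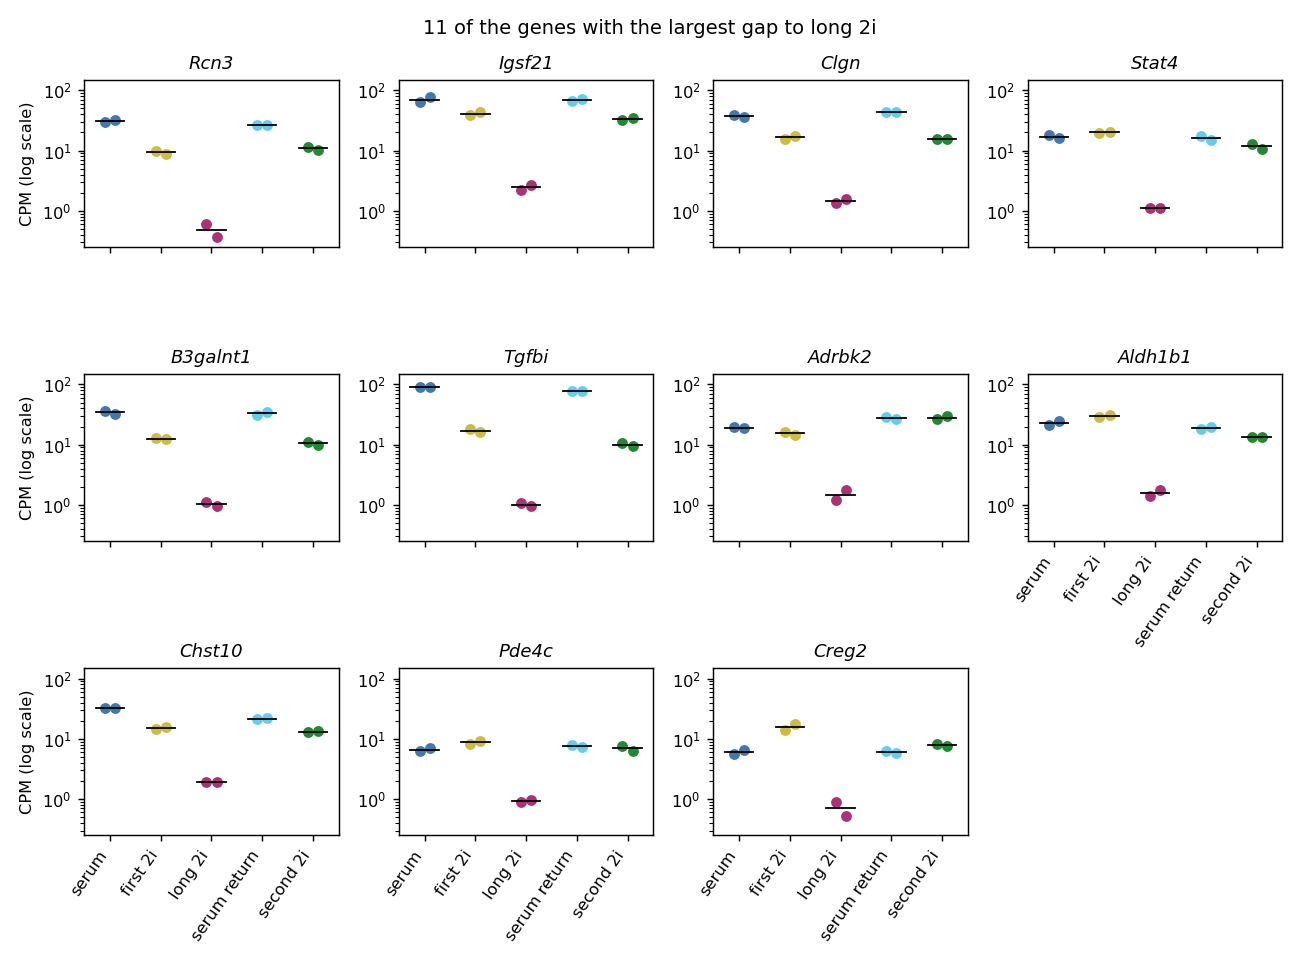
CPM on a log axis in each library (points, coloured by group) and the mean of each group (black bars) for 11 of the 12 genes with the largest ratio. In each panel both long 2i points lie below all 8 others, and for Rcn3 they stand at 0.595 and 0.373 CPM.

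Among proteins of the endoplasmic reticulum and the glycosylation machinery were 8 genes. Rcn3, a calcium-binding chaperone of the secretory pathway, read 30.2 and 32.8 CPM in serum, 10.02 and 8.63 in first 2i, 26.5 and 26.8 after the return to serum, 11.6 and 10.3 in second 2i and 0.595 and 0.373 in long 2i. The long 2i values rest on 10 and 7 counts. In these bulk libraries, fewer cells of a type and less RNA per cell cannot be told apart. Clgn, calmegin, a lectin-like chaperone of the endoplasmic reticulum, read 39.5 and 36.2 CPM in serum, 15.8 and 17.7 in first 2i, 44.2 and 43.8 after the return to serum, 15.4 and 15.6 in second 2i and 1.37 and 1.54 in long 2i. For both genes the 4 serum and serum return libraries were highest, the first and second 2i libraries lay between, and long 2i was lowest with no overlap. B3galnt1, a glycosyltransferase that makes globoside, read 35.8 and 32.7 CPM in serum, 12.8 and 12.3 in first 2i, 31.7 and 35.5 after the return to serum, 11.1 and 9.94 in second 2i and 1.13 and 0.958 in long 2i. Chst10, the sulfotransferase of the HNK-1 carbohydrate, read 31.9 and 33 CPM in serum, 14.5 and 15.4 in first 2i, 21.6 and 21.8 after the return to serum, 12.9 and 13.3 in second 2i and 1.904 and 1.92 in long 2i. Serum exceeded serum return here, and the 4 libraries of first and second 2i lay close together. Atp2a3, a calcium pump of the endoplasmic reticulum, read 29.9 and 32.2 CPM in long 2i and 102 to 150.5 CPM in the 8 other libraries. P4ha2, a collagen prolyl hydroxylase, Mgat3, which adds bisecting N-acetylglucosamine, and Glt1d1 read 2.12 ± 0.205, 10.3 ± 0.724 and 4.01 ± 0.473 CPM in long 2i (mean ± SD, n = 2).

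Secreted and matrix-linked proteins made up 10 of the genes. Tgfbi, a matrix protein named for its induction by TGF-β, read 91.9 and 91.6 CPM in serum, 17.97 and 16.3 in first 2i, 79.2 and 79.3 after the return to serum, 10.6 and 9.36 in second 2i and 1.07 and 0.958 in long 2i. Both serum phases were high, first and second 2i intermediate and long 2i lowest. Within these ranges second 2i was 1.70-fold below first 2i (edgeR adjusted p = 3.25e-06) and serum return 1.17-fold below serum (edgeR adjusted p = 0.0131). Igfbp2, a binding protein for insulin-like growth factors, read 334 and 379 CPM in serum, 169 and 190.4 in first 2i, 300.2 and 355 after the return to serum, 191 and 215 in second 2i and 32.7 and 33.8 in long 2i. Replicate 2 was the higher in each group, by less than the gaps between long 2i and the rest. Vegfa, the endothelial growth factor, read 67.7 and 70.3 CPM in serum, 30.2 and 24.9 in first 2i, 121 and 123 after the return to serum, 61.7 and 64.3 in second 2i and 6.72 and 8.52 in long 2i. Serum return was highest for Vegfa and first 2i the lowest outside long 2i. Fstl1, a follistatin-like glycoprotein, read 9.76 and 9.32 CPM in long 2i and 35.9 to 75.8 CPM elsewhere. Bmp7, a BMP ligand, was at 1.61 and 1.86 CPM in long 2i, where the 8 others held 5.58 to 8.36 CPM. The glypicans Gpc1 and Gpc3, heparan sulfate co-receptors, read 9.64 and 11.8 and 1.19 and 0.905 CPM in long 2i. Chga, a granin of secretory granules, C2, a complement component, and Creg2 complete the set, at 3.47 ± 0.232, 4.26 ± 0.302 and 0.712 ± 0.255 CPM in long 2i.

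Surface proteins and receptors numbered 10. Igsf21, an immunoglobulin superfamily adhesion protein known from synapses, read 63.3 and 76.2 CPM in serum, 38.5 and 43 in first 2i, 66.8 and 73.1 after the return to serum, 32.8 and 34.4 in second 2i and 2.26 and 2.66 in long 2i. The 2 serum phases overlapped, and all their values were above those of first and second 2i. Cd97, an adhesion G protein-coupled receptor, read 154 and 171 CPM in serum, 106 and 112 in first 2i, 212 and 209.5 after the return to serum, 166 and 172 in second 2i and 24.9 and 23.5 in long 2i. For Cd97 the highest values were those of serum return and the lowest outside long 2i those of first 2i. Tnfrsf1b, a receptor of tumour necrosis factor, kept within 23.8 to 31.1 CPM in all 8 other libraries and read 5.41 and 6.07 CPM in long 2i. Igsf8, a partner of tetraspanins, likewise kept within 50.2 to 64.7 CPM and read 16.8 and 16.3 CPM. It lies on chromosome 1 and, like Gpc1, did not meet the limits after division by that chromosome's median. Tmem63a, a mechanically gated ion channel, read 2.44 and 2.66 CPM in long 2i, 11.9 and 13.5 CPM in second 2i and 23.5 to 25.3 CPM in the other 6 libraries. Sort1, a sorting receptor, Scara5, a scavenger receptor that binds ferritin, Plet1, Shisa2, which retains FGF and Wnt receptors in the endoplasmic reticulum, and Dpp4, a surface dipeptidase, read 2.72 ± 0.611, 1.3 ± 0.181, 1.49 ± 0.0823, 1.498 ± 0.237 and 5.83 ± 1.09 CPM in long 2i.

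**Figure D3:**
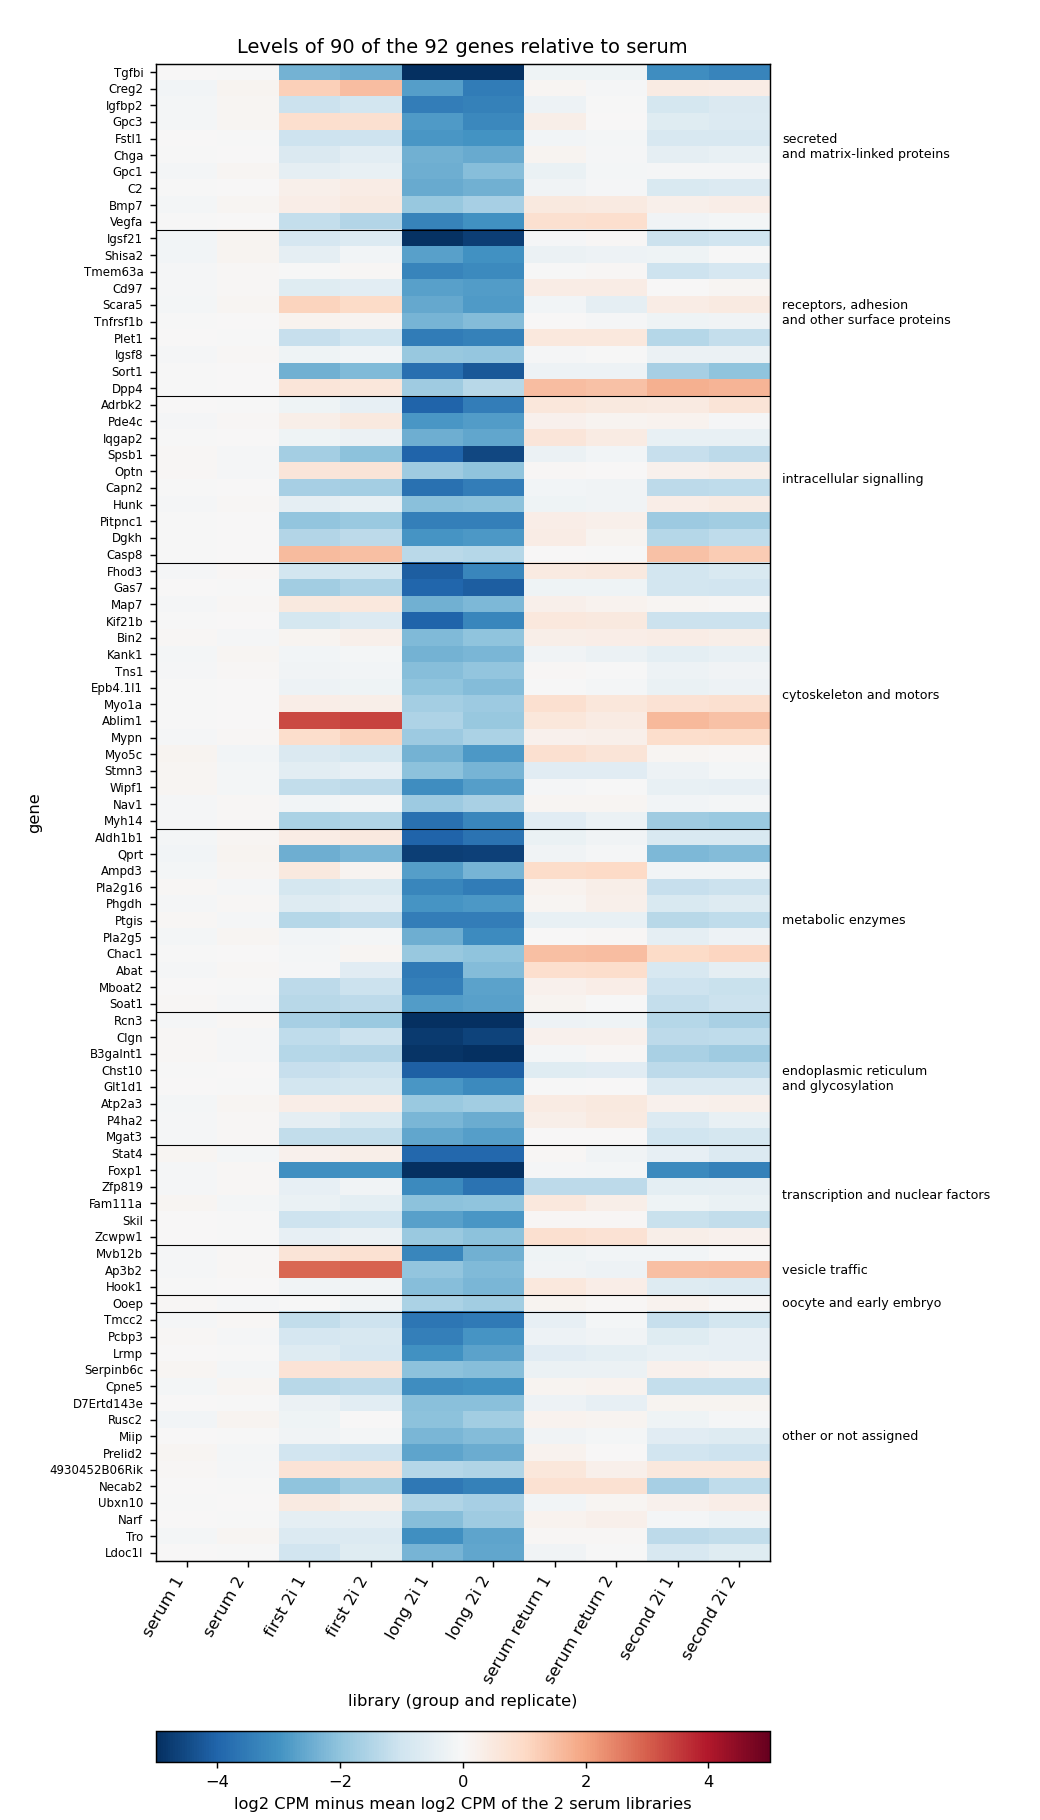
Log2 CPM of 90 of the 92 genes (rows, grouped by role) in the 10 libraries (columns), as the difference from the mean of the 2 serum libraries, with differences below -5 drawn in the darkest blue. The pair of long 2i columns is blue in every row, and the serum return columns are close to 0 for most, with Zfp819 lower and Chac1 and Dpp4 higher.

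Intracellular signalling made up 11 of the genes. Adrbk2, the receptor kinase GRK3, read 19.5 and 18.8 CPM in serum, 16.5 and 14.5 in first 2i, 28.5 and 26.96 after the return to serum, 26.4 and 29.6 in second 2i and 1.19 and 1.76 in long 2i, with its highest values in serum return and second 2i. Pde4c, a cAMP phosphodiesterase, read 6.36 to 9.27 CPM in the 8 other libraries and 0.892 and 0.958 CPM in long 2i. Hunk, a kinase of the AMPK-related family, read 136 and 144 CPM in serum, 103 and 109 in first 2i, 121 and 124 after the return to serum, 176 and 185 in second 2i and 33.1 and 33.9 in long 2i. Its highest values were those of second 2i. Casp8, the initiator caspase of death receptors, read 10.6 and 10.8 CPM in serum, 32.1 and 30.4 in first 2i, 10.9 and 10.6 after the return to serum, 29.1 and 25.8 in second 2i and 4.22 and 3.94 in long 2i, nearly as low in both serum phases as the rule allows. Casp8 and Capn2 are on chromosome 1 and did not meet the limits after the same division. Dgkh, a diacylglycerol kinase, Pitpnc1, a phosphatidylinositol transfer protein, Iqgap2, Spsb1, Optn, an autophagy receptor, and Capn2, a calpain, read 2.58 ± 0.116, 14.4 ± 0.0146, 7.13 ± 0.599, 1.19 ± 0.332, 6.77 ± 0.769 and 10.6 ± 1.56 CPM in long 2i.

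The largest set by role was the cytoskeleton and its motors, with 16 genes, though the share of this role among all expressed genes was not counted. The myosins Myo1a, Myo5c and Myh14 belonged to it, at 1.605 ± 0.08601, 3.404 ± 0.823 and 4.79 ± 1.13 CPM in long 2i. Actin-linked members were the formin Fhod3, Gas7, the sarcomeric protein Mypn, the focal adhesion proteins Tns1 and Kank1, the LIM protein Ablim1, and Wipf1, which binds WASP. Tns1 read 151 and 166 CPM in serum, 138 and 145 in first 2i, 163 and 155 after the return to serum, 133 and 138 in second 2i and 36.1 and 40.6 in long 2i, and its 8 values outside long 2i stayed within 133 to 166 CPM. Epb4.1l1, a protein of the membrane skeleton, read 70.6 and 71.5 CPM in serum, 59.6 and 61.3 in first 2i, 70.3 and 66.2 after the return to serum, 55.9 and 59.4 in second 2i and 17.4 and 15.8 in long 2i. Bin2, Kank1 and Stmn3 read 6.69 ± 0.628, 8.19 ± 0.312 and 5.48 ± 0.668 CPM in long 2i. Nav1, a microtubule-associated neuron navigator, kept within 152 to 179.8 CPM outside long 2i and read 47.3 and 54.7 CPM in it. Tns1 and Nav1 lie on chromosome 1, where the median log2 ratio to serum was -0.40 and -0.43 in long 2i. Neither met the limits after division by that chromosome's median ratio to the other groups (log2 -0.45). Map7, which recruits kinesin to microtubules, read 64.8 and 68.8 CPM in serum, 93.03 and 95.3 in first 2i, 79.1 and 75.8 after the return to serum, 70.9 and 69.3 in second 2i and 12.7 and 14.2 in long 2i, highest in first 2i. The kinesin Kif21b read 1.78 and 2.98 CPM in long 2i and 13.6 to 41.6 CPM elsewhere. Ablim1 differed most among the other groups, with 7.18 and 7.21 CPM in serum, 70.6 and 74.6 in first 2i, 10.7 and 9.68 after the return to serum, 22 and 20.1 in second 2i and 2.44 and 1.92 in long 2i.

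Metabolic enzymes made up 11 genes. Phgdh, the first enzyme of serine synthesis, read 93.2 and 98.4 CPM in serum, 60.6 and 66.2 in first 2i, 103 and 115 after the return to serum, 56.8 and 61.4 in second 2i and 12.4 and 13.3 in long 2i. The 4 libraries of both serum phases stood above the 4 of first and second 2i. Chac1, a glutathione-degrading enzyme of the stress response, read 19.4 and 19.4 CPM in serum, 17.97 and 20.6 in first 2i, 55.7 and 55.8 after the return to serum, 37.7 and 40.5 in second 2i and 5.24 and 4.79 in long 2i, where serum return was highest and serum and first 2i overlapped. Aldh1b1, a mitochondrial aldehyde dehydrogenase, read 21.03 and 24.5 CPM in serum, 29.1 and 31.6 in first 2i, 18.04 and 20.01 after the return to serum, 13.2 and 13.4 in second 2i and 1.43 and 1.76 in long 2i. First 2i was the highest group here and second 2i the lowest outside long 2i. Qprt, an enzyme of NAD synthesis from tryptophan, read 1.31 and 1.33 CPM in long 2i, 6.26 and 6.86 CPM in first 2i and 31.05 and 36.97 CPM in serum. The lipid enzymes Pla2g16, Pla2g5, Ptgis (prostacyclin synthase), Mboat2 and Soat1 (which esterifies cholesterol) read 2.03 ± 0.239, 2.62 ± 0.921, 2.64 ± 0.0316, 3.16 ± 1.103 and 5.105 ± 0.236 CPM. Abat, which breaks down GABA, differed between the long 2i libraries, at 0.773 and 2.02 CPM, and Ampd3, an AMP deaminase, read 1.07 and 1.44 CPM.

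There were 7 transcription and nuclear factors. Stat4, a transcription factor of cytokine signalling, read 18.2 and 15.9 CPM in serum, 19.8 and 20.7 in first 2i, 17.8 and 15.1 after the return to serum, 12.9 and 10.7 in second 2i and 1.13 and 1.12 in long 2i. Foxp1, a forkhead factor, read 61.4 and 65.8 CPM in serum, 7.62 and 7.89 in first 2i, 60.4 and 58.7 after the return to serum, 6.95 and 6.15 in second 2i and 1.13 and 0.905 in long 2i, a pattern in which first and second 2i were already near the 5 CPM limit. Skil, a Smad corepressor that TGF-β and Nodal signalling induces, read 125 and 121 CPM in serum, 60.5 and 61.8 in first 2i, 128 and 128 after the return to serum, 57.6 and 53.1 in second 2i and 18.8 and 16.3 in long 2i. Fam111a, a protease linked to DNA replication, read 136 and 116 CPM in serum, 98.4 and 88.7 in first 2i, 179.6 and 156 after the return to serum, 108 and 98.4 in second 2i and 30.6 and 30.8 in long 2i. Skil fell into 3 levels, with both serum phases high, first and second 2i intermediate and long 2i lowest, whereas for Fam111a serum return was highest. Zfp819, a KRAB zinc finger gene, and Zcwpw1, a histone reader of meiosis, read 2.47 ± 0.631 and 3.41 ± 0.307 CPM in long 2i. Vesicle traffic held Ap3b2, Mvb12b and Hook1, at 1.55 ± 0.161, 2.79 ± 1.17 and 18.1 ± 1.38 CPM. Ooep, part of the subcortical maternal complex of oocytes and early embryos, read 78.4 and 73.4 CPM in serum, 73.8 and 66.6 in first 2i, 83.01 and 78.6 after the return to serum, 85.2 and 78.1 in second 2i and 25.4 and 22.8 in long 2i, and its 4 other group means lay within 1.16-fold of each other, the narrowest range of the named genes. The remaining 15 genes, of other or unassigned role (Tmcc2, Lrmp, Pcbp3, Serpinb6c, Cpne5, D7Ertd143e, Rusc2, Miip, Prelid2, 4930452B06Rik, Necab2, Ubxn10, Narf, Tro and Ldoc1l), had long 2i means of 1.29 to 11.96 CPM.

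How the same genes responded to 2i outside long 2i was tested next. In first 2i against serum, 59 of the 92 genes were lower (64.1%) and 20 higher (21.7%), and 13 did not pass (edgeR quasi-likelihood F-test, false discovery rate controlled at 0.05 over 14220 genes). Among all genes tested, 34.9% were lower and 35.1% higher, and among the 9493 genes with at least 5 CPM in the 8 libraries 34.5% and 37.2%. The median log2 fold change was -0.44 over the 92 genes and 0.01 over all genes tested. In second 2i against serum return, which uses none of the same libraries, 65 were lower (70.7%, against 33.3% of all genes and 31.5% of the 9493) and 14 higher (15.2%, against 32.3% and 35.9%), with a median of -0.55 against 0.00. The rule used the lowest of these libraries but not which group held it, and it leaves out genes that fall below 5 CPM in any of them.

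Both responses called 51 genes lower, which is 86.4% of the first set and 78.5% of the second. Over all genes tested 3388 were lower in both, or 68.4% and 71.5%. Genes higher in both numbered 10, which is 50% and 71.4% of the sets, against 66.4% and 72.1% over all genes. These shares depend on how many genes each response called. In the second response 70.7% of the 92 genes were lower, against 33.3% of all genes. The larger overlap of lower genes thus does not show closer agreement between the responses for the 92 genes. Counts by role are a description, since roles were assigned after the members were seen. They stand beside 64.1% lower and 21.7% higher over the 92 genes in the first response, and 70.7% and 15.2% in the second. Over all genes tested the shares were 34.9% and 35.1%, then 33.3% and 32.3%. By role, endoplasmic reticulum and glycosylation genes were lower in 7 of 8 in the first response (1 higher) and in 8 of 8 in the second. Metabolic enzymes were lower in 6 of 11 (1 higher) and then in 11 of 11. Cytoskeletal genes were lower in 10 and 11 of 16, with 3 higher in each response. In intracellular signalling 8 and 6 of 11 were lower and 3 higher each time, and among surface proteins 6 of 10 were lower and 2 higher each time. Secreted proteins had 6 lower and 4 higher of 10 in the first response and 7 and 1 in the second, and nuclear factors 5 and 1 of 7, then 5 and 2. Vesicle traffic had 1 lower and 2 higher of 3, then 1 and 1, and Ooep passed in neither response. The 15 genes of other or unassigned role had 10 lower and 3 higher, then 10 and 2.

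Foxp1 fell most in both responses, 8.35-fold in first 2i (log2 fold change -3.06 ± 0.09, edgeR adjusted p = 6.38e-17) and 9.06-fold in second 2i (log2 fold change -3.18 ± 0.10, edgeR adjusted p = 1.01e-16). Tgfbi fell 5.44-fold and 7.899-fold, and Qprt 5.27-fold and 4.23-fold. Sort1 fell 5.01-fold in first 2i (edgeR adjusted p = 1.72e-13). In second 2i the calcium-binding protein Necab2 fell 4.599-fold and Pitpnc1 4.24-fold (edgeR adjusted p = 4.76e-13 and 5.98e-17). In the opposite direction, Ablim1 rose 9.902-fold in first 2i (log2 fold change 3.31 ± 0.10, edgeR adjusted p = 5.48e-17) and 2.06-fold in second 2i. Ap3b2, a subunit of the neuronal AP-3 adaptor, rose 7.38-fold and 3.35-fold, and Casp8 2.87-fold and 2.56-fold. Scara5 rose 2.01-fold and 1.63-fold, and Creg2 2.56-fold in first 2i. For these 5 genes the level was higher in first 2i than in serum. That both long 2i libraries lay under every serum library was set by the rule for every gene of the list. Genes were named here only if the change had the same sign in all 4 library pairs, so this agreement adds no support.

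**Figure D4:**
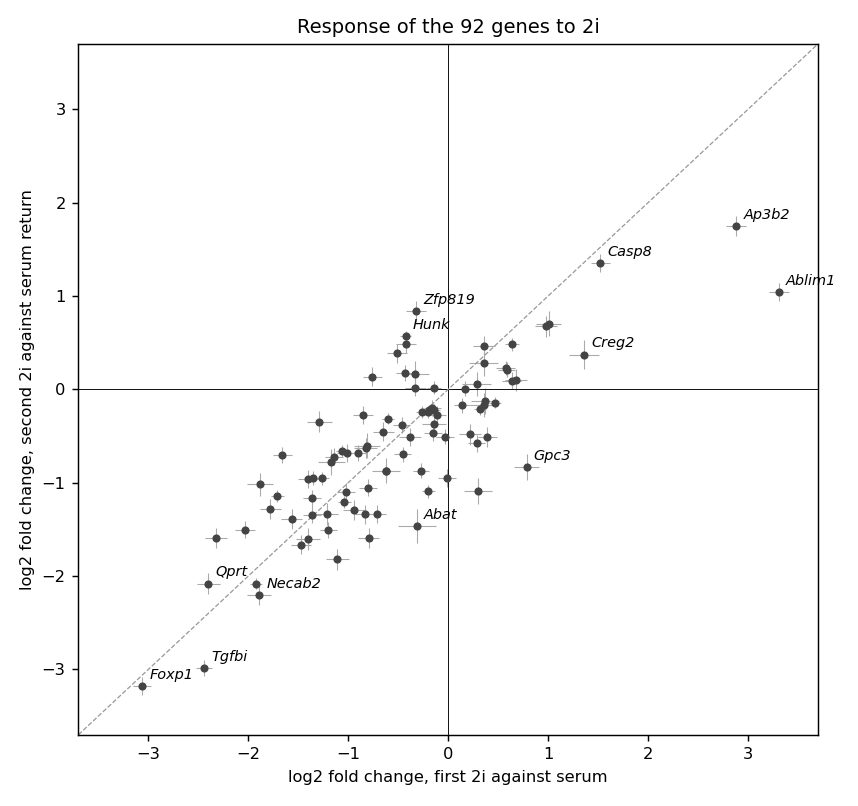
Log2 fold change of each of the 92 genes (points, with standard errors) in first 2i against serum (x axis) and second 2i against serum return (y axis), with the dashed line at equal change. Most points lie at lower left, with Foxp1 and Tgfbi farthest, and Ablim1, Ap3b2 and Casp8 at upper right.

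Whether 2i had the same effect on both occasions was tested as an interaction term of the same edgeR fit. The second response was higher in 21 genes (22.8%, against 18.4% of all genes tested and 22.4% of the 9493) and lower in 27 (29.3%, against 21.0% and 23.1%). Ablim1 had a second response that differed from the first by -2.26 on the log2 scale, and the glypican Gpc3, which rose in first 2i (0.78) and fell in second 2i (-0.83), differed by -1.62. Ampd3 and Abat fell in second 2i (-1.09 and -1.47) but did not pass in first 2i (0.30 and -0.31, edgeR adjusted p = 0.0675 and 0.149). Zfp819 and Hunk fell in first 2i (-0.32 and -0.42) and rose in second 2i (0.84 and 0.57).

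The next pair of comparisons uses the same libraries as the responses above. Whether the genes stood at their earlier level after serum was tested against the original serum culture. In serum return 50 of 92 did not pass, 26 were higher (28.3%, against 16.5% of all genes tested and 18.0% of the 9493) and 16 lower (17.4%, against 14.5% and 18.1%). The means of 82 genes (89.1%) lay within 1.5-fold of serum, against 96.8% of the 9493 genes with at least 5 CPM. Chac1 was 2.84-fold higher in serum return (log2 fold change 1.51 ± 0.08, edgeR adjusted p = 3.74e-10) and Dpp4 2.83-fold higher (log2 fold change 1.499 ± 0.09, edgeR adjusted p = 4.40e-10). Ampd3, Abat and Vegfa were 1.91-fold, 1.797-fold and 1.74-fold higher (edgeR adjusted p = 3.09e-05, 0.00138 and 1.62e-07). Zfp819 was 2.51-fold lower (log2 fold change -1.33 ± 0.11, edgeR adjusted p = 3.34e-08), at 10.5 and 10.6 CPM from 25.1 and 27.2 CPM, and it alone was lower by more than 2-fold. Chst10, Stmn3, a tubulin-binding stathmin, and Lrmp were 1.52-fold, 1.5-fold and 1.45-fold lower (edgeR adjusted p = 2.32e-05, 0.00018 and 0.000314). Myh14 was 1.36-fold lower, a call that was lost without replicate 1 of serum return (log2 fold change -0.31, edgeR adjusted p = 0.0593). The count of 16 lower genes was 7 without that library, 8 without replicate 2 of serum and 10 with DESeq2. The serum return libraries differed in Rn45s (2506 and 15408 CPM), whose part in these values was not tested.

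Second 2i was set against first 2i for the same question in 2i. Here 43 of 92 did not pass, 26 were higher (28.3%, against 18.1% of all genes tested and 20.2% of the 9493) and 23 lower (25%, against 19.6% and 20.9%), and 69 genes (75%) lay within 1.5-fold, against 94.1% of the 9493. Ablim1 was 3.42-fold lower (log2 fold change -1.77 ± 0.09, edgeR adjusted p = 5.39e-12), Gpc3 2.73-fold and Ap3b2 2.59-fold. Aldh1b1 was 2.26-fold and C2 2.003-fold lower (edgeR adjusted p = 2.63e-08 and 5.87e-08). Vegfa was 2.304-fold higher (log2 fold change 1.204 ± 0.08, edgeR adjusted p = 1.08e-09), Dpp4 2.23-fold and Chac1 2.05-fold. The myosin Myo5c and Wipf1 were 1.86-fold and 1.86-fold higher (edgeR adjusted p = 5.29e-06 and 1.49e-05). Across both comparisons 27 genes passed in neither, among them Foxp1, Skil and Qprt, and 10 were higher in both, among them Chac1, Dpp4 and Vegfa. The matching shares over all genes were not counted, so these counts are a description and set the 92 genes apart from no other genes. The genes with the narrowest range over the 4 other groups were Ooep, Tns1, Nav1, Rusc2 and Igsf8, whose group means lay within 1.16-fold to 1.23-fold.

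**Figure D5:**
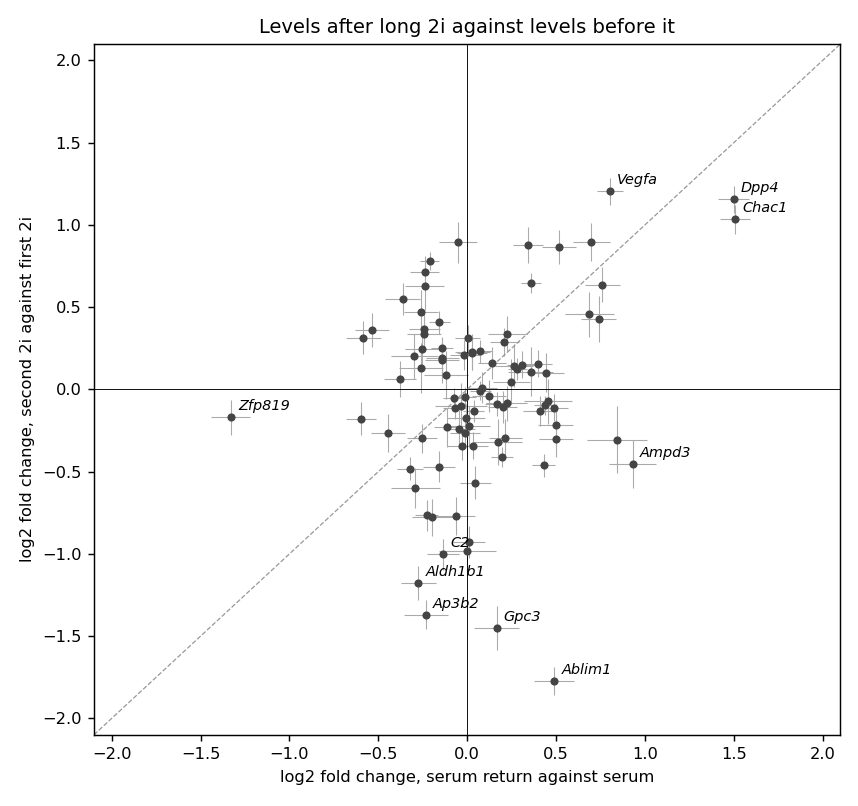
Log2 fold change of each of the 92 genes (points, with standard errors) in serum return against serum (x axis) and second 2i against first 2i (y axis), with the dashed line at equal change. Dpp4, Chac1 and Vegfa lie at upper right, Zfp819 at far left and Ablim1 lowest.

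The 92 genes are 0.969% of the 9493 genes with at least 5 CPM in the 8 libraries, and 5 of 11 pathway lists held any of them. Of 38 hypoxia-responsive genes at that level 2 (5.26%), Vegfa and P4ha2, were among the 92, and another of that list, Aldoc, met the limits and was set aside by its symbol. The same count was 2 of 24 (8.33%) for serine synthesis and the stress response (Chac1 and Phgdh) and 1 of 19 (5.26%) for the Nodal and TGF-β pathway (Skil). Lefty1 and Lefty2, which met the limits and were set aside by symbol, were not on the Nodal list. It was 1 of 9 (11.1%) for formative and primed epiblast genes (Foxp1) and 1 of 30 (3.33%) for imprinted genes (Ampd3). The median ratio over these 5 lists was 0.83, 0.89, 0.77, 0.67 and 0.60 in the order given, against 0.76 over the 9493 genes. No gene was found among 27 p53 targets, 33 pluripotency genes, 13 ERK targets, 9 Wnt and β-catenin targets, 22 genes of simple epithelium and junctions, or 15 genes of Notch, Hedgehog and retinoic acid signalling.

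The lists as wholes are given beside the shares of all genes tested, 35.1% higher and 34.9% lower in first 2i against serum, and 32.3% and 33.3% in second 2i against serum return. Hypoxia genes had 7 higher and 34 lower of 47 tested in the first response and 8 and 35 in the second. The serine and stress list had 15 higher and 11 lower of 29 in the first response but 6 and 14 in the second. In serum return against serum 24 of these 29 were higher and 2 lower (all genes 16.5% and 14.5%), and in second 2i against first 2i 13 and 5 (18.1% and 19.6%). The Nodal list had 8 higher and 10 lower of 22, then 6 and 11, the epiblast list 3 and 11 of 18, then 5 and 9, and imprinted genes 17 and 23 of 54, then 12 and 21. ERK targets had 0 higher and 22 lower of 25, then 3 and 17, and Wnt targets 11 and 8 of 25, then 16 and 7. For p53 targets the counts were 21 higher and 6 lower of 32, then 13 and 10, and for pluripotency genes 10 and 20 of 35, then 15 and 18. Epithelial genes had 23 and 13 of 40, then 17 and 14, and Notch, Hedgehog and retinoic acid genes 8 and 20 of 34, then 8 and 19.

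The 92 genes were spread over 20 chromosomes, and no pair lay next to each other in the order of protein-coding genes. Of the 91 found in GENCODE M21, 28 have exons that overlap those of another gene, 24 of them on the opposite strand, including Rcn3, Creg2, Cd97, Plet1 and Igsf8. The share over all genes was not counted, so these overlaps are a description. Records called ambiguous, 0.69 to 0.73% per library, were kept out. The annotation and strand setting of the counting are not given, so how reads over the shared exons were assigned is not known.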

How the data were processed

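Whole-number read counts per gene were deposited by the authors, 1 table per library, not normalized. The submitters' processing notes name build mm9 and, as tools, TopHat2 2.0.4, CASAVA 1.8.2, DESeq2 and HTSeq 0.5.4p5. No annotation or strand setting is given in the sources used here. Summary categories (45.2 to 48.8% of records, most of them aligned to more than 1 place) were kept out.

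Levels are CPM over gene counts. Folds and p-values come from edgeR 4.0.16 in R 4.3.3: filterByExpr by group (minimum count 10, minimum total 15; 14220 genes, all 92 among them), TMM, and a robust quasi-likelihood fit of the 10 libraries by group (5 residual degrees of freedom). Tests were two-sided, with Benjamini-Hochberg adjustment over all genes and a threshold of 0.05. Counts per library give precision for counting error only. The scripts were tested on simulated counts.

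The titles carry 2 series, with 1 library of each group in each. Differences between the series correlated between groups (0.21 to 0.34 over 10 pairs of groups), so the series pair the libraries. A fit with the series as a block was an alternative, beside RLE, no filter, DESeq2 1.42.0, only the groups compared, and leaving out each library.

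The members, lists and tests were chosen with earlier results of these data known. Roles were assigned after the members were seen. Genes are named by size of ratio (12), level (12), fold change in a comparison (5 each way), list membership, closeness to the limit (3 each side) and narrowest range (5). The other members are given by role by counts or values, and a few named by these rules are not reported here. All 92 symbols matched RefSeq, 86 directly and 6 through a synonym.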

Additional observations from a re-analysis of the deposited data

Results flagged for a closer look

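By the interaction term of the edgeR fit, the second response to 2i was higher than the first in 21 of the 92 genes (22.8%) and lower in 27 (29.3%). Among all genes tested 18.4% were higher and 21.0% lower, and among the 9493 genes 22.4% and 23.1%. The share of higher genes was thus close to that of the 9493. Of the named genes, the second response was lower for Ablim1 (log2 difference -2.26, edgeR adjusted p = 4.27e-10), Gpc3 (-1.62), Ampd3 (-1.38), Abat (-1.15) and Ap3b2 (-1.14). It was higher for Zfp819 (log2 difference 1.16, edgeR adjusted p = 7.62e-06), Hunk (0.99), Gas7 (0.95), Wipf1 (0.94) and D7Ertd143e (0.91).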

How the results depend on the processing

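The number of genes was 153 with a ratio of at least 2, 56 with at least 3, and 92 to 110 when 1 library was left out, which by construction can only add genes. It was 78 without chromosome 1 and 92, of which 85 were shared, after division by the chromosome median, both chosen after seeing the data. Genes lower in serum return against serum numbered 10 with DESeq2 and 7 to 18 when 1 library was left out, with 7 without replicate 1 of serum return and 8 without replicate 2 of serum. The median log2 fold change of long 2i, in alternatives chosen after seeing the data, ran from -2.29 to -2.15 against first 2i, -2.89 to -2.84 against serum return, -2.37 to -2.32 against second 2i and -2.82 to -2.73 against serum when 1 library was left out. With the replicate block by title series, the genes lower and higher were 61 and 23 in first 2i, 66 and 15 in second 2i, and 23 and 33 in serum return against serum. In the second minus the first response they were 34 and 23, and in second against first 2i 25 and 29. No call of a named gene changed. Every other count in the alternatives run stayed within 1.5 times its value. Of 50 named gene results 1, Myh14, lost its call in 1 alternative. With 2 libraries a group and shared dispersion, small differences are beyond this depth.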

Other observations

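Genes high only in long 2i by the mirrored rule, with at least 5 CPM in both long 2i libraries and at least 2.5 times the highest of the other 8, numbered 60. The same mirrored rule found 0 genes for serum, 14 for first 2i, 4 for serum return and 9 for second 2i. On chromosome 6, where the long 2i medians were above the other libraries, 2 of 434 expressed genes (0.461%) were among the 92. On chromosome 16 the count was 3 of 300 (1.0%), near the 0.969% of all 9493 genes with at least 5 CPM in the 8 libraries. On chromosome X the medians relative to serum were 0.39 and 0.34 in long 2i, 0.32 and 0.26 in first 2i, 0.20 and 0.14 in second 2i and 0.11 and 0.04 in serum return.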
